A study of Mus musculus with 16 samples.

Results

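Kcnd2, Kcnd3, Kcnip2, Kcnj2, Kcnj3, Kcnj11, Kcna5, Kcnq1 and Kcnv2 encode potassium channel subunits of heart muscle. They were taken by symbol from the count table of 16 mouse left ventricles, as 9 of its 24982 entries, and all 9 passed the filter on low counts that left 13775 genes for testing. All 16 animals were C57BL/6 mice labelled Tln2-null, with 5 days of intraperitoneal tamoxifen, a gap of 2 weeks and then 8 weeks on an osmotic pump delivering angiotensin II (AngII). In 8 of them, 4 female and 4 male, Tln1 was also labelled as knocked out in cardiac fibroblasts (called the knockout here), and the other 8, 4 female and 4 male, were labelled Tln2-null alone. Tln1 and Tln2 encode talins, adaptor proteins that link integrins to actin. Each mouse gave 1 library of total RNA from the left ventricle. The groups hold no mouse with intact Tln2 and none without AngII, so the data compare the knockout with Tln2-null hearts under the same treatment, and females with males. Neither the driver of the knockout nor the exons removed could be taken from the sources used here.

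Potassium channels end the cardiac action potential and hold the resting potential between beats. Transient outward channels, built from Kcnd2 and Kcnd3 pores with the Kcnip2 subunit, give the early repolarization that is large in mouse ventricle, while inward rectifiers such as Kcnj2 set the resting potential. In rodents, pressure overload and hypertrophy are known to lower several of these transcripts, and Kcnip2 and Kcnd2 are known to cycle with the time of day in mouse heart.

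The libraries held between 11161766 and 19221673 counts, and the 9 channel genes had between 110 counts (Kcnv2) and 6277 counts (Kcnip2) in a library. Values below are in CPM, read counts divided by library size, with sizes adjusted by TMM, a correction for composition. Tln1, deleted in 1 cell type only, had a lowest, median and highest level of 221, 279 and 323 CPM in knockout ventricles, against 251, 289 and 322 CPM in Tln2-null ventricles, and Tln2 averaged 67.0 ± 2.32 CPM in knockout and 66.8 ± 7.25 CPM in Tln2-null ventricles (SD, n = 8 each). Counts over whole genes cannot check the labels without the deleted exons. The ventricular light chain Myl2 averaged 2614 CPM, while the atrial markers Myl7, Sln and Bmp10 averaged 0.161, 0.020 and 0.007 CPM. Tbx5, Stard10, Dkk3, Gja5 and Myl4, also listed as atrial genes, averaged 40.8, 29.8, 16.6, 8.20 and 2.98 CPM. The skeletal muscle myosin gene Myh4 had 0 counts in every library. In 2 libraries, knockout mouse 8 (male) and Tln2-null mouse 8 (female), the clock genes stood apart from those of the other 14, as given below with the channel genes that moved there. In 4 female libraries, 3 knockout and 1 Tln2-null, Y-linked counts lay between 1.11% and 2.89% of the male mean.

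Within the 9, Kcnd2 varied from mouse to mouse with Kcnip2, and Kcnj3 with Kcnd3, the pairs of highest Pearson's r. By rank, Kcnj3 with Kcnv2 stood above Kcnd2 with Kcnip2. The other correlated pairs, and the limits of all of them, are given below. The starts of Kcnd2, Kcnip2, Kcnj3 and Kcnd3 are shown because members that moved together can be compared there. Each is the RefSeq promoter window on GRCm38.p6, from 250 bases before to 50 after the start, 5′ to 3′ on the strand of the gene. Of the 9 genes, 6 were matched to the promoter table. Capitals mark CACCC or its reverse complement GGGTG, the box that Klf15, a zinc finger factor known in mouse heart to act on Kcnip2, can bind, and CACGTG, the box of the clock factors. The windows lie at chr6:21215096-21215395 (plus strand) for Kcnd2, at chr19:45816014-45816313 (minus strand) for Kcnip2, at chr2:55435720-55436019 (plus strand) for Kcnj3 and at chr3:105451640-105451939 (plus strand) for Kcnd3. The RefSeq start differs from the GENCODE gene start given with each gene below: the GENCODE start lies 157 bases downstream of it for Kcnd2, 440 for Kcnd3, 2 for Kcnip2 and 0 for Kcnj3, so the Kcnd2 and Kcnd3 windows do not hold the GENCODE start.
Kcnd2: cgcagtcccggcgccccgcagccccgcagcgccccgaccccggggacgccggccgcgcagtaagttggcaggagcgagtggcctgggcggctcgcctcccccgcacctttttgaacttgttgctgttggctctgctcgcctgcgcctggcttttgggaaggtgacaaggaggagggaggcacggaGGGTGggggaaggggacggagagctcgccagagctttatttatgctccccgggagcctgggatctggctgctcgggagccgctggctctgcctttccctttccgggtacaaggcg
Kcnip2: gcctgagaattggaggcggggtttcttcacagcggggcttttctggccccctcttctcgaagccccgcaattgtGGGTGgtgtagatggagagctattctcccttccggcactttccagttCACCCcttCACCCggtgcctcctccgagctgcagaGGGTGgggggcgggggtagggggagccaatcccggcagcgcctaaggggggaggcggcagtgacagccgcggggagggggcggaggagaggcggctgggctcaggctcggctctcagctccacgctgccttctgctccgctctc
Kcnj3: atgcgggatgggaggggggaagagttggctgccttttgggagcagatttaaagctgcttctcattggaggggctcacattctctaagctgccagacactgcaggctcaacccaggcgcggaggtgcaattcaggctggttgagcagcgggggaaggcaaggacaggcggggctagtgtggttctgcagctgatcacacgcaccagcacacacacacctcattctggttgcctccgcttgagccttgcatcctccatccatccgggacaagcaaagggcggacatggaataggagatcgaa
Kcnd3: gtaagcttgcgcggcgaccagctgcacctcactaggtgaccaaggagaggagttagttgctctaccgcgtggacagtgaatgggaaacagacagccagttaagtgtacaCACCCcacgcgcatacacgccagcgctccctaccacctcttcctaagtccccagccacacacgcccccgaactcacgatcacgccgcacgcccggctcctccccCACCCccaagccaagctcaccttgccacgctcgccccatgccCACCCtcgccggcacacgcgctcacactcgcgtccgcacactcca
The Kcnd2 window held 1 CACCC box and the Kcnip2 window 4, the Kcnd3 window 3 and the Kcnj3 window 0. None of these 4 windows held CACGTG. Of the matched genes whose windows are not printed, Kcnj2 had 1 CACGTG and 1 CACCC box, and Kcna5 had 0 CACGTG and 2 CACCC boxes. Of all 32851 promoter windows of this length, 57.5% held the CACCC box on either strand and 7.15% held CACGTG. The motifs did not overlap in the 4 windows printed, and a match is a description of letters, not a site.

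The question of the design was whether losing Tln1 in fibroblasts alters the AngII-treated ventricle. None of the 9 channel genes differed between knockout and Tln2-null ventricles at an adjusted p under 0.05 (edgeR's quasi-likelihood test with Benjamini-Hochberg adjustment over 13775 genes), where 0% of all genes were called. DESeq2 called 17 and limma-voom 11 of all genes, and neither called any of the 9. At an unadjusted p under 0.05 the count was 1 of 9, Kcnj3, against 5.08% of all genes. The fitted log2 difference was positive for 7 of 9, against 6723 of all 13775 genes tested. Its median was 0.13 over the 9, against 0.00 (-0.003) over all genes tested. The groups overlapped for each of the 9, a description that was not set against all genes.

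The transient outward channel was described by 3 genes. Kcnd2 (chr6:21215503-21729805), a pore-forming subunit, had a lowest, median and highest level of 20.6, 34.3 and 47.0 CPM in knockout ventricles, against 15.4, 25.3 and 42.6 CPM in Tln2-null ventricles. The highest mouse of each genotype was mouse 8, and 6 of 8 knockout ventricles lay above the Tln2-null mean. The fitted log2 difference of Kcnd2 was 0.27 ± 0.19 (SE), a 1.202-fold level with a 95% interval of 0.916 to 1.58, and the adjusted p was 0.939. Kcnd3 (chr3:105452330-105674002), the other pore-forming subunit, ran at 18.9, 24.8 and 29.1 CPM in knockout ventricles, against 15.2, 21.6 and 26.6 CPM in Tln2-null ventricles. Its ranges overlapped, with 2 knockout ventricles above the highest Tln2-null one, and its log2 difference was 0.18 ± 0.11 (adjusted p 0.935). Kcnip2 (chr19:45791839-45816061), the subunit that brings these pores to the membrane, had 251, 295 and 322 CPM in knockout ventricles, against 217, 259 and 373 CPM in Tln2-null ventricles. Tln2-null mouse 8 was the highest of all 16 for Kcnip2, and the next Tln2-null mouse had 280 CPM. The log2 difference of Kcnip2 was 0.13 ± 0.09 (adjusted p 0.939), and without the 2 libraries whose clock genes stood apart it was 0.22 (adjusted p 0.459). For Kcnd2 the log2 difference without those 2 libraries was 0.31 (adjusted p 0.793).

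The inward rectifiers were described by Kcnj2, Kcnj3 and Kcnj11. Kcnj2 (chr11:111066164-111076821), the main pore of the resting inward rectifier current, had a lowest, median and highest level of 55.7, 62.3 and 73.1 CPM in knockout ventricles, against 36.0, 56.5 and 87.3 CPM in Tln2-null ventricles. The knockout values lay inside the Tln2-null range: both the highest and the lowest of the 16 mice were Tln2-null. The coefficient of variation of Kcnj2 was 8.48% among knockout ventricles and 25.9% among Tln2-null ventricles, a description with no test, and its log2 difference was 0.12 ± 0.13 (adjusted p 0.946). Kcnj3 (chr2:55435970-55598145), a pore of the acetylcholine-activated current best known from the atria and the sinus node, had 79.0, 104 and 131 CPM in knockout ventricles, against 71.0, 84.5 and 108 CPM in Tln2-null ventricles. In 3 knockout ventricles Kcnj3 lay above the highest Tln2-null one, and 6 of 8 lay above the Tln2-null mean. The log2 difference of Kcnj3 was 0.23 ± 0.11, a 1.18-fold level with a 95% interval of 1.004 to 1.379. Its unadjusted p was 0.045 and its adjusted p 0.935, and it ranked 626 of 13775 by p. Without knockout mouse 7, the highest for Kcnj3, the log2 difference was 0.16 with an adjusted p of 1.0, and without the 4 female libraries with Y-linked counts it was 0.17 (adjusted p 0.994). Kcnj11 (chr7:46093953-46100764), the pore of the ATP-sensitive channel that opens when energy runs low, had 167, 186 and 225 CPM in knockout ventricles, against 163, 184 and 206 CPM in Tln2-null ventricles. These ranges nearly coincided, and the 95% interval of the Kcnj11 fold level ran from 0.923 to 1.11 (adjusted p 0.994).

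Kcna5, Kcnq1 and Kcnv2 serve delayed or ultrarapid rectifier currents. Kcna5 (chr6:126532551-126535412), an ultrarapid delayed rectifier pore, had a lowest, median and highest level of 26.4, 43.7 and 65.3 CPM in knockout ventricles, against 33.01, 40.4 and 57.8 CPM in Tln2-null ventricles. The knockout range enclosed the Tln2-null range, the group means were 44.2 ± 13.4 CPM in knockout and 44.2 ± 10.05 CPM in Tln2-null ventricles, and the 95% interval of the fold level ran from 0.778 to 1.28 (adjusted p 1.0). Kcnq1 (chr7:143106362-143427042), the pore of the slow delayed rectifier, had 51.7, 60.8 and 73.2 CPM in knockout ventricles, against 51.2, 59.6 and 73.1 CPM in Tln2-null ventricles. Its groups shared nearly the same range, with a 95% interval of the fold level from 0.882 to 1.12 (adjusted p 0.995). The antisense gene Kcnq1ot1 overlaps Kcnq1 and averaged 5.82 CPM, and Kcnd3os overlaps Kcnd3 and averaged 1.15 CPM. Whether counting used the strand is not stated in the sources used here, so reads of each pair may not be separated. Kcnv2 (chr19:27322588-27337179), an electrically silent subunit that forms no channel alone, had 8.69, 13.2 and 16.2 CPM in knockout ventricles, against 6.10, 10.4 and 20.3 CPM in Tln2-null ventricles. The knockout values again lay inside the Tln2-null range, with coefficients of variation of 19.6% in knockout and 42.1% in Tln2-null ventricles, and the log2 difference was 0.18 ± 0.21 (adjusted p 0.952).

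**Figure D1:**
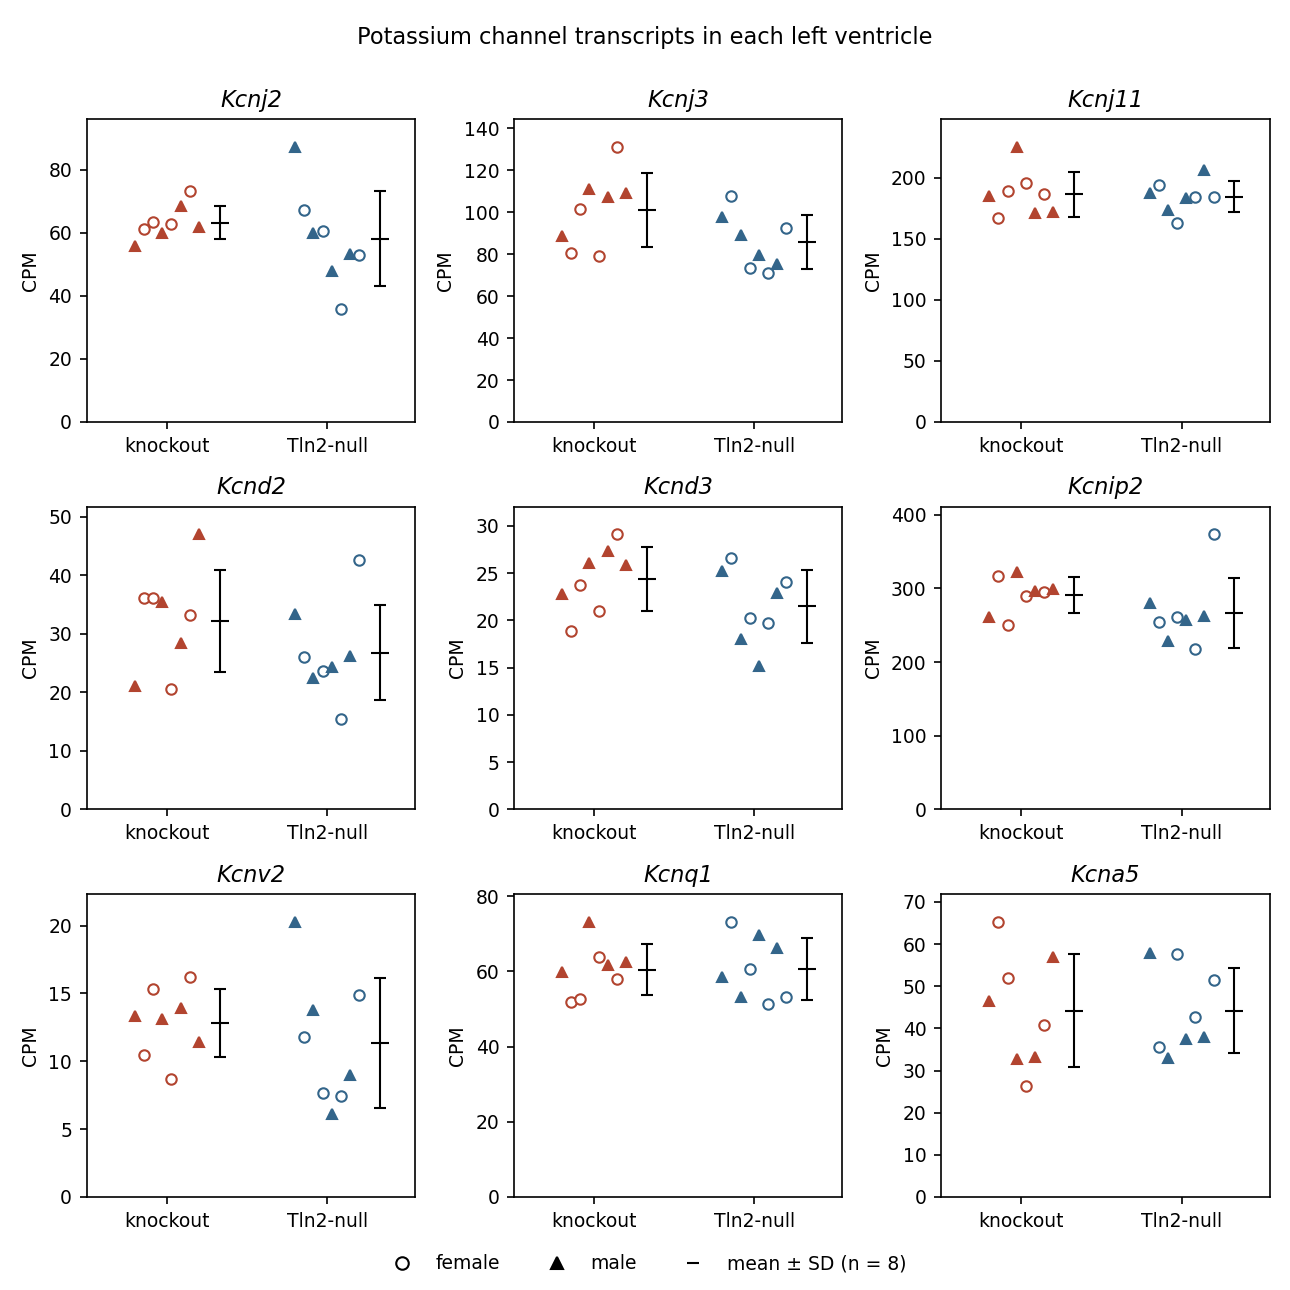
CPM of each potassium channel gene in each left ventricle (y axis, linear, from 0), knockout left of Tln2-null, with circles for females and triangles for males; the horizontal bar is the mean and the error bar the SD of 8 mice. The groups overlap in every panel, and the Tln2-null points for Kcnj2 spread from 36.0 to 87.3 CPM while the knockout points lie between 55.7 and 73.1 CPM.

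Because the ventricles are bulk tissue, fewer muscle cells and less RNA per muscle cell cannot be told apart. All 10 cardiomyocyte markers had a positive log2 difference, with a median of 0.07, where 6723 of all 13775 genes tested had one. Within males 10 of the 10 were positive, with a median of 0.14, and within females 5 of 10, with a median of -0.006. The interaction called none of them. Their summed level ran from 56688 to 67448 CPM in knockout and from 58306 to 62779 CPM in Tln2-null ventricles. All 5 hypertrophy markers (Nppa, Nppb, Myh7, Acta1, Ankrd1) were lower in the fit, with a median log2 difference of -0.30, and their sums ran from 2765 to 6142 CPM in knockout and from 4321 to 8394 CPM in Tln2-null ventricles. All 6 matrix genes were lower too, with a median of -0.43, and their sums ran from 476 to 1693 CPM in knockout and from 756 to 2034 CPM in Tln2-null ventricles. All 5 fibroblast markers had a negative log2 difference, with a median of -0.25. Their sums ran from 642 to 1032 CPM in knockout and from 815 to 1227 CPM in Tln2-null ventricles. The markers were uneven: Ddr2 averaged 42.93 CPM in knockout and 42.97 CPM in Tln2-null ventricles, nearly level. The counts at an unadjusted p under 0.05 were 3 of 5 for fibroblast markers (60%) and 2 of 6 for matrix genes (33.3%). They were 2 of 10 for cardiomyocyte markers (20%) and 0 of 5 for hypertrophy markers (0%), against 5.08% of all genes. Tcf21, a fibroblast transcription factor, averaged 6.11 ± 2.16 CPM in knockout and 11.5 ± 2.48 CPM in Tln2-null ventricles, and all 8 knockout ventricles lay below the Tln2-null mean. Its log2 difference was -0.93 ± 0.18 with an adjusted p of 0.158 in edgeR, while DESeq2 and limma-voom called it, with adjusted p of 0.00136 and 0.0190. None of the markers of these 4 lists passed the adjusted threshold in edgeR, and their part in the channel values was not tested.

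Females and males were compared in the same fit, with 8 mice a side. None of the 9 channel genes was called at an adjusted p under 0.05 (edgeR), against 0.0871% of all genes, and none had an unadjusted p under 0.05, against 3.69% of all genes. DESeq2 and limma-voom called 0 of the 9 as well. Kcnq1 came closest: it had a lowest, median and highest level of 51.2, 55.6 and 73.1 CPM in females, against 53.1, 62.0 and 73.2 CPM in males, and only 2 of 8 females lay above the male mean. The sexes overlapped, and the female-over-male log2 difference of Kcnq1 was -0.12 ± 0.08, with an adjusted p of 1.0. Kcna5, known in mouse ventricle to respond to androgens, had 26.4, 47.1 and 65.3 CPM in females, against 32.6, 37.7 and 57.8 CPM in males. Its log2 difference was 0.15 ± 0.17, and the 95% interval of the fold level ran from 0.865 to 1.43 (adjusted p 1.0). The other female-over-male log2 differences were smaller than their errors: -0.14 ± 0.21 for Kcnv2, -0.06 ± 0.13 for Kcnj2, -0.04 ± 0.06 for Kcnj11, -0.04 ± 0.11 for Kcnj3, -0.02 ± 0.19 for Kcnd2, 0.01 ± 0.11 for Kcnd3 and 0.04 ± 0.09 for Kcnip2.

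The genotype effect in females minus that in males was tested as an interaction. None of the 9 genes passed at an adjusted p under 0.05 (edgeR), where 0% of all genes were called, and none passed unadjusted, against 4.27% of all genes. With DESeq2 and with limma-voom 0 of the 9 passed too. The most negative value was that of Kcnd3, -0.30 ± 0.22 (log2, adjusted p 0.980). Knockout males averaged 25.5 ± 1.93 CPM of Kcnd3 and Tln2-null males 20.3 ± 4.55 CPM, while knockout females averaged 23.2 ± 4.41 CPM and Tln2-null females 22.7 ± 3.25 CPM (SD, n = 4 each). All 4 knockout males lay above the Tln2-null male mean for Kcnd3, Kcnj3 and Kcnip2. This was picked after the values were seen and was not set against all genes. For the genotype effect within males, 0 of the 9 had an unadjusted p under 0.05 (edgeR), against 6.07% of all genes. The most positive value was that of Kcnj2, 0.28 ± 0.25 (adjusted p 0.980), with 65.1 ± 5.45 CPM in knockout and 54.1 ± 13.4 CPM in Tln2-null females, and 61.4 ± 5.32 CPM in knockout and 62.1 ± 17.5 CPM in Tln2-null males. Between these lay Kcnip2 with -0.14 ± 0.18, Kcnq1 with -0.13 ± 0.16, Kcnj3 with -0.10 ± 0.22, Kcnd2 with -0.07 ± 0.38, Kcna5 with -0.04 ± 0.35, Kcnj11 with 0.01 ± 0.13 and Kcnv2 with 0.20 ± 0.43 (log2), none beyond its error. With 4 mice per cell the 95% intervals of the interaction were wide, from -0.71 to 1.11 (log2) for Kcnv2 and from -0.26 to 0.29 for Kcnj11, the narrowest.

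**Figure D2:**
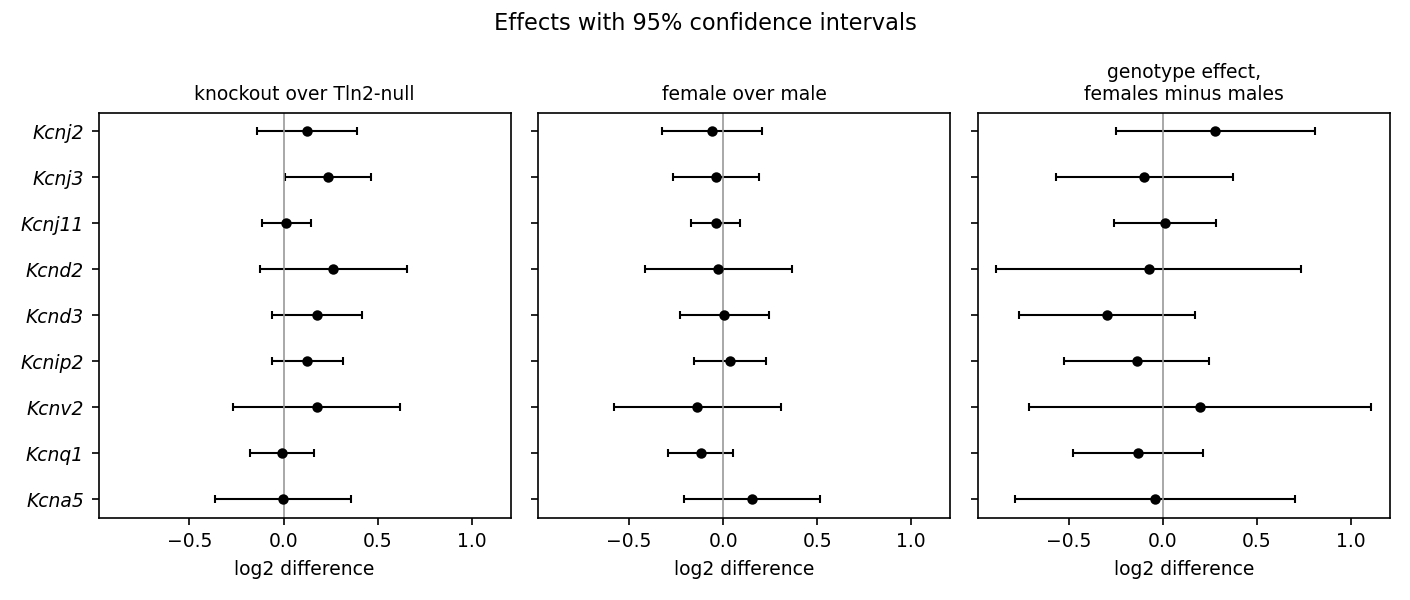
Fitted log2 differences (x axis) of the 9 channel genes for knockout over Tln2-null, female over male, and the genotype effect in females minus that in males; points are edgeR estimates and bars 95% confidence intervals. The interval of Kcnj3 in the genotype panel starts just above 0, and every other interval crosses 0.

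Channels work as complexes, so the balance of subunits was compared as a ratio within each library, which no library scaling touches. Of 5 ratios of counts, none differed between genotypes after Benjamini-Hochberg adjustment (exact two-sided permutation test, genotypes exchanged within each sex, 4900 exchanges). The Kcnip2 to Kcnd2 ratio had a geometric mean of 9.32 in knockout and 10.2 in Tln2-null ventricles (adjusted p 0.529, exact permutation test). It ranged from 6.35 in knockout mouse 8 to 14.1 in knockout mouse 5. The Kcnd2 to Kcnd3 ratio was 1.29 in knockout and 1.22 in Tln2-null ventricles, and the ratio of Kcnj2 to Kcnj12, another inward rectifier pore, was 1.004 in knockout and 0.876 in Tln2-null ventricles (adjusted p 0.681 and 0.529, exact permutation test). Kcnj3 to Kcnj5, its partner in the acetylcholine-activated channel, stood at 0.859 in knockout and 0.771 in Tln2-null ventricles (adjusted p 0.529, exact permutation test). Kcnj11 to Abcc9, the sulfonylurea receptor of the ventricular ATP-sensitive channel, stood at 0.342 in knockout and 0.381 in Tln2-null ventricles, and all 8 knockout ratios were below the Tln2-null mean. The unadjusted exact permutation p of that ratio was 0.035 and the adjusted p 0.173. Ratios of counts are not ratios of molecules, since transcript lengths differ.

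Other potassium channel genes were described by lists that also gave no call in any of the 3 comparisons. For genotype, the 8 tested of 14 other inward rectifier genes had a median log2 difference of 0.04. The median was -0.003 for the 14 tested of 30 other voltage-gated subunits and -0.12 for the 6 tested of 15 accessory subunits. The 13 tested of 22 two-pore and calcium-activated channel genes had -0.07. Of those 13, 11 were negative, against 7052 of all 13775 genes tested. Abcc9 averaged 546 ± 57.5 CPM in knockout and 486 ± 59.2 CPM in Tln2-null ventricles, a log2 difference of 0.17 ± 0.07 (adjusted p 0.935). Kcnk3, a two-pore background channel, averaged 425 ± 39.9 CPM in knockout and 437 ± 39.6 CPM in Tln2-null ventricles (log2 difference -0.04 ± 0.07). Kcnt2, a sodium-activated channel, averaged 4.55 ± 1.26 CPM in knockout and 5.60 ± 1.11 CPM in Tln2-null ventricles (log2 difference -0.31 ± 0.16, adjusted p 0.935). Among 10 genes that regulate or anchor channels, the median was 0.08, and Ank2, an anchor of membrane proteins, had 0.11 ± 0.06 (adjusted p 0.935). Between the sexes, Kcnip3, a relative of Kcnip2, averaged 1.99 ± 0.441 CPM in females and 2.78 ± 0.837 CPM in males, a log2 difference of -0.47 ± 0.18 (adjusted p 1.0). Kcne1, the partner of Kcnq1 in the slow delayed rectifier, averaged 15.2 ± 3.66 CPM in females and 11.5 ± 5.20 CPM in males (log2 difference 0.41 ± 0.24, adjusted p 1.0). In the interaction, Klf15 had the lowest p of the regulators, with a log2 difference of 0.58 ± 0.26 (adjusted p 0.980). The 2 libraries with shifted clock genes are a knockout male and a Tln2-null female, and their part in the Klf15 value was not tested.

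Levels were compared between genes per kilobase of merged exons (GENCODE M21 annotation of GRCm38). Kcnip2 led the 9 with 80.3 CPM per kilobase over the 16 mice, followed by Kcnj11 with 50.4, Kcnj3 with 17.9, Kcna5 with 15.5, Kcnq1 with 14.8, Kcnj2 with 11.1, Kcnd2 with 5.73, Kcnd3 with 2.39 and Kcnv2 with 2.37. The ranges over 16 mice did not overlap between Kcnip2 and Kcnj11, nor between Kcnj11 and Kcnj3. All 6 other neighbours in this order overlapped, and Kcnd3 and Kcnv2 differed by a factor of 1.01. Among all channel genes measured, Kcnk3 stood above Kcnip2 with 108 CPM per kilobase. Merged exons count isoform parts that a heart transcript may not use, which lowers the value of genes with long unused exons.

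**Figure D3:**
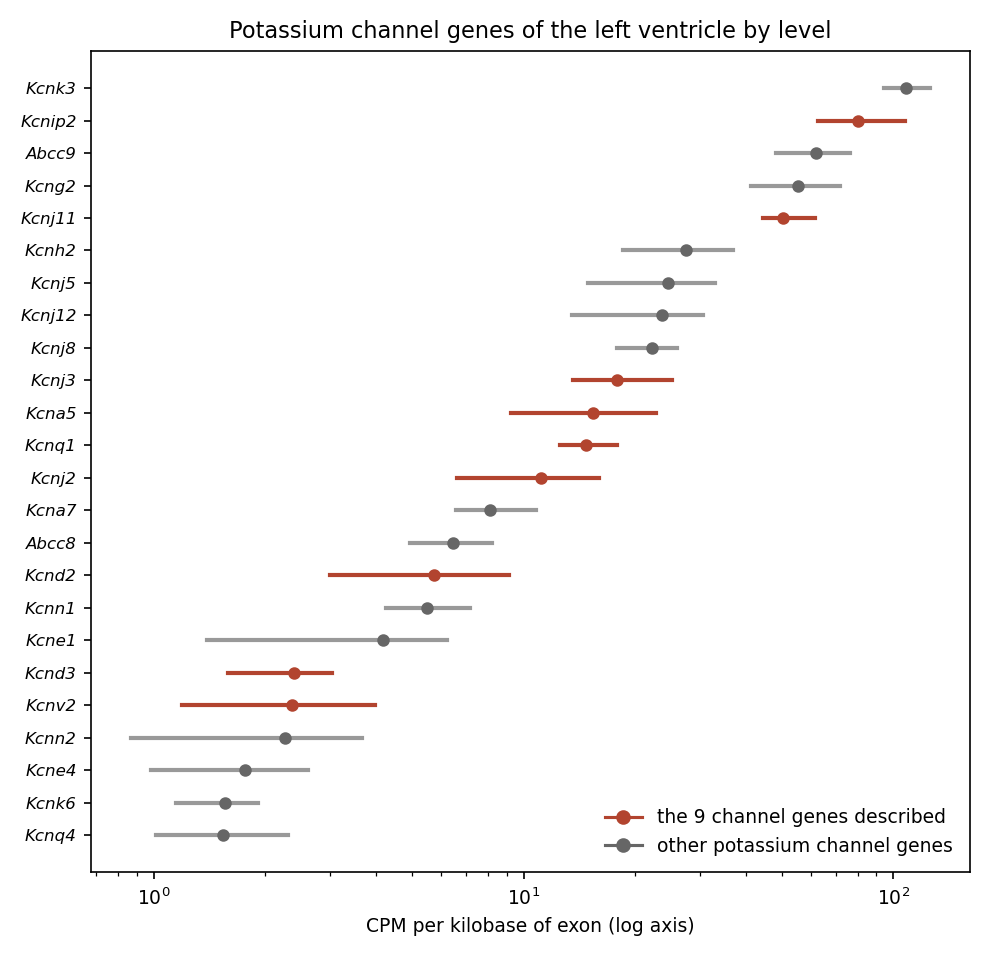
Mean level (points) and range over 16 mice (lines) of potassium channel genes in CPM per kilobase of merged exons, on a log axis, with the 9 channel genes described here in red and others in grey. Kcnip2 and Kcnj11 stand clear of the other 7, which form a chain of overlapping ranges.

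The 9 genes differed in how much they varied from mouse to mouse. Kcnv2 had a highest to lowest ratio of 3.32 over the 16 mice and Kcnd2 of 3.05, followed by Kcna5 with 2.47 and Kcnj2 with 2.43, while Kcnj11 had 1.38 and Kcnq1 1.43. The fitted biological variation within genotype and sex, set beside genes of like level (a window of 1 log2 unit), put Kcnd2 at percentile 97.5, Kcna5 at 97.1, Kcnv2 at 96.3, Kcnj2 at 92.5 and Kcnj3 at 90.4. Kcnd3 lay at percentile 84.0, Kcnip2 at 83.6 and Kcnq1 at 73.0, while Kcnj11 lay at 51.1, near the middle. These values include the 2 libraries whose clock genes stood apart, where Kcnd2 was highest.

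Some of this variation was shared between genes. Over 16 mice, 6 of 36 pairs of the 9 genes were correlated at an adjusted p under 0.05 (Pearson's r of log2 CPM with 0.5 CPM added, two-sided permutation test with 100000 resamples, Benjamini-Hochberg over the 36 pairs), and all 6 were positive. Their smallest r was 0.621, and 2.35% of all 94868425 pairs of the 13775 genes tested had an r at least as high in these libraries, while 2.11% had an r of -0.621 or lower. The 36 pairs share genes and all pairs share the libraries, so this is a description. Kcnj3 with Kcnd3 gave r = 0.777 (permutation p 0.00047, adjusted 0.0169) and rho = 0.806 (permutation p 0.0003, adjusted 0.0108). The r was 0.730 without the 2 mice farthest from the median of Kcnj3, 0.948 among knockout mice and 0.570 among Tln2-null mice. Kcnd2 with Kcnip2 gave r = 0.733 (permutation p 0.00114, adjusted 0.0196) and rho = 0.638 (permutation p 0.00934, adjusted 0.0865), and r = 0.669 without the 2 mice farthest from the median of Kcnd2. This pair gave r = 0.333 among knockout mice and 0.928 among Tln2-null mice, a difference that was not tested. Without the 2 libraries whose clock genes stood apart, Kcnd2 with Kcnip2 gave r = 0.680 (adjusted permutation p 0.0467) and rho = 0.495.

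Kcnv2 took part in 3 of the 6 pairs. With Kcnj3 it gave r = 0.722 and rho = 0.688 (permutation p 0.00167 and 0.0041, adjusted 0.0196 and 0.0738), with Kcnj2 r = 0.690 and rho = 0.591 (permutation p 0.00218 and 0.0178, adjusted 0.0196 and 0.0904), and with Kcnd3 r = 0.684 and rho = 0.609 (permutation p 0.00335 and 0.0144, adjusted 0.0241 and 0.0865). Without the 2 farthest mice these r were 0.656, 0.520 and 0.701. The last pair, Kcnj2 with Kcnj3, gave r = 0.621 and rho = 0.582 (permutation p 0.00833 and 0.0201, adjusted 0.04998 and 0.0904), and its adjusted p was 0.120 once genotype and sex had been subtracted. The other 5 pairs stayed under 0.05 after that subtraction. Residuals were permuted without allowing for the terms subtracted, so these p-values are somewhat too small. By rank, with rho in place of r, Kcnj3 with Kcnd3 alone passed the adjusted threshold.

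Kcnj11, Kcnq1 and Kcna5 were in none of the 6 pairs. Kcna5 ran against Kcnj11 with r = -0.50 and against Kcnq1 with r = -0.49, and Kcnj11 ran with Kcnq1 at r = 0.53. The adjusted permutation p of these 3 lay between 0.121 and 0.151.

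**Figure D4:**
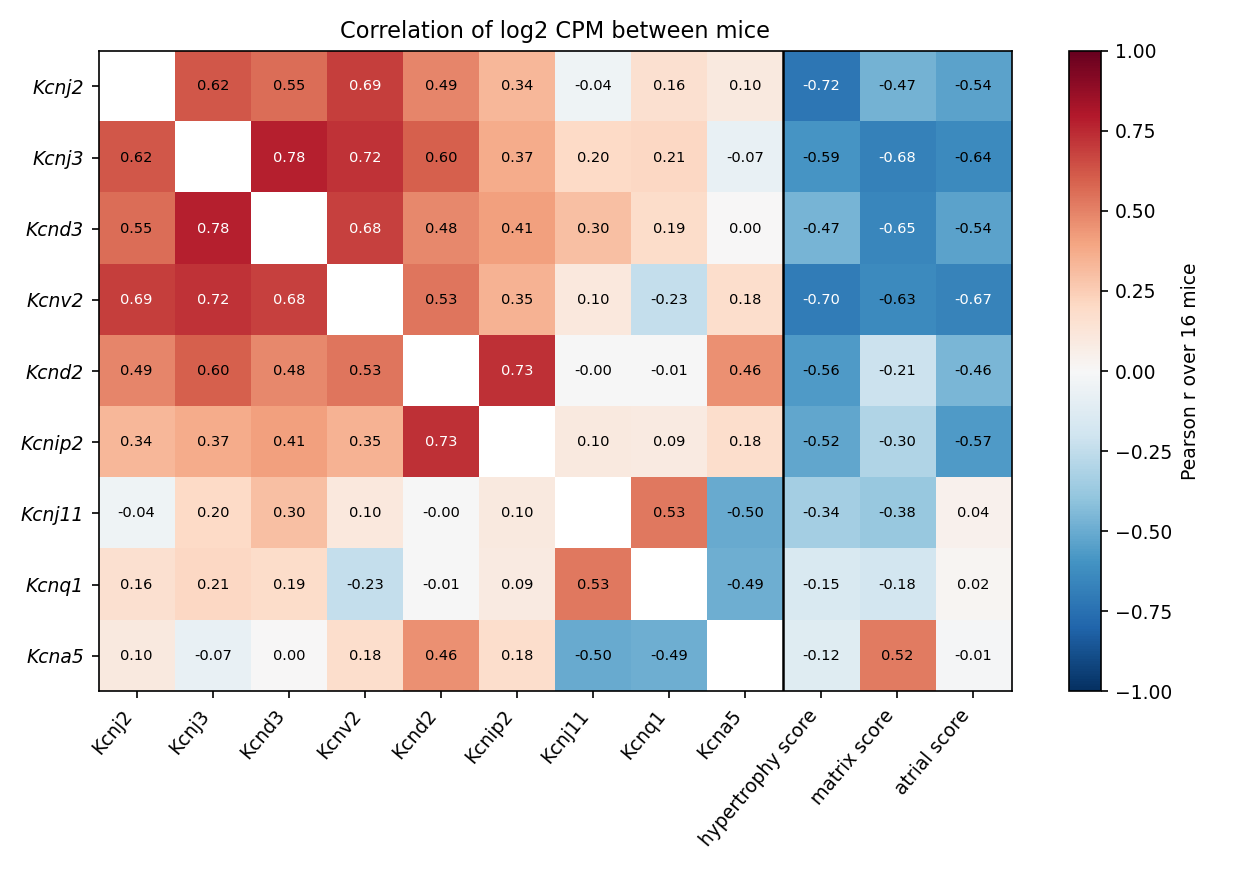
Pearson's r over 16 mice (colour and number in each cell) of log2 CPM between the 9 channel genes and, right of the line, with 3 marker scores. Kcnj2, Kcnj3, Kcnd3 and Kcnv2 form a block of positive values from 0.55 to 0.78 with negative values against the hypertrophy, matrix and atrial scores.

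The state of each heart was summarised by scores, each the mean of centred log2 CPM over a marker list: hypertrophy (5 genes), matrix (6 genes), atrial genes (5 of 8 listed passed the filter) and clock genes. The r was positive in 6 of the 36 relations of the 9 channel genes with the 4 scores, with a median of -0.42. Of these 36 relations, 7 passed at an adjusted permutation p under 0.05, all of them negative. Their r was -0.634 or lower, a size that 2.4% of relations of all tested genes outside the marker lists with the same 4 scores reached in the negative direction and 3.37% in the positive direction. By score, the negative share of all genes was 1.28% for hypertrophy, 3.59% for matrix, 1.66% for atrial and 3.05% for clock genes. Kcnj2 with the hypertrophy score gave r = -0.721 and rho = -0.674 (permutation p 0.00175 and 0.00526, adjusted 0.0443 and 0.0473), and r = -0.741 without the 2 mice farthest from the median score. Kcnj2 was 87.3 CPM in the Tln2-null mouse of lowest hypertrophy score (-0.98) and 36.0 CPM in the Tln2-null mouse of highest score (0.75). Within genotype the r was -0.073 among knockout mice and -0.858 among Tln2-null mice, and the score itself spread less among knockout mice, from -0.80 to 0.24, than among Tln2-null mice, from -0.98 to 0.75. Kcnv2 with the same score gave r = -0.696 and rho = -0.721 (permutation p 0.00273 and 0.00228, adjusted 0.0443 and 0.0432), with -0.216 among knockout and -0.828 among Tln2-null mice.

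Kcnj3, Kcnd3 and Kcnv2 ran against the matrix score with r of -0.679, -0.652 and -0.634 and rho of -0.632, -0.627 and -0.694 (permutation p of r 0.00401, 0.00615 and 0.00825, adjusted 0.0443, 0.0443 and 0.0458). Without the 2 farthest mice these r were -0.622, -0.649 and -0.605. Kcnj3 and Kcnv2 ran against the atrial score with r of -0.637 and -0.670 and rho of -0.632 and -0.624 (permutation p of r 0.00891 and 0.00496, adjusted 0.0458 and 0.0443), and with -0.506 and -0.459 without the 2 farthest mice. The most specific atrial genes were at or near 0, as given above, so this score rests on Myl4, Dkk3, Stard10, Gja5 and Tbx5, of which Tbx5 averaged 40.8 CPM and Dkk3 16.6 CPM. With genotype and sex subtracted, none of the 7 relations passed, with adjusted permutation p between 0.0515 and 0.153. With the number in the sample title subtracted as well, 10 of 36 passed, all negative, of which 5 were among the 7. The p-values on residuals make no allowance for the terms subtracted and are somewhat too small. Without the 2 libraries with shifted clock genes 4 of 36 passed, of which 3 were among the 7. The mean scores of the genotypes lay apart: the matrix score averaged -0.21 ± 0.52 in knockout and 0.21 ± 0.42 in Tln2-null mice, and the atrial score -0.15 ± 0.17 in knockout and 0.15 ± 0.22 in Tln2-null mice (SD, n = 8 each). Of the atrial score genes Dkk3 had the lowest log2 difference, -1.30 ± 0.35 (edgeR, adjusted p 0.421), with 9.72 ± 5.09 CPM in knockout and 23.6 ± 14.9 CPM in Tln2-null ventricles. The part of these differences in the relations was not tested beyond the subtraction of genotype.

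**Figure D5:**
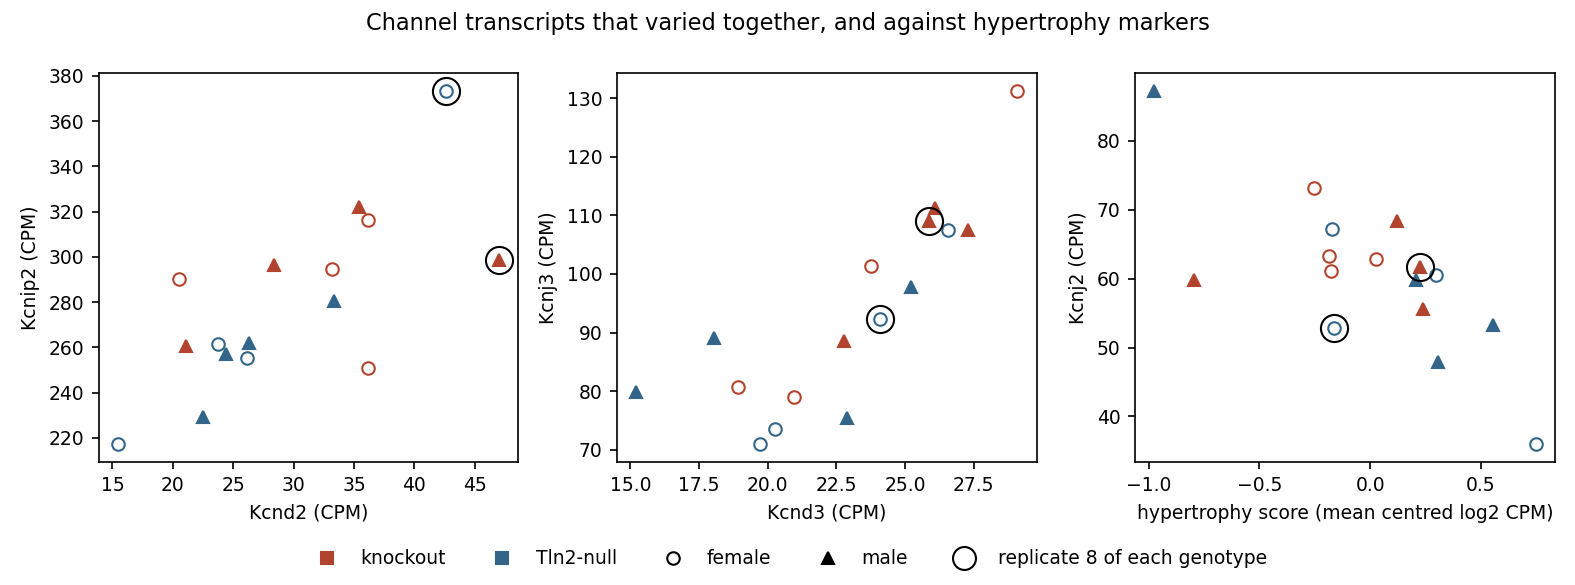
Level of Kcnip2 against Kcnd2, of Kcnj3 against Kcnd3 (CPM) and of Kcnj2 (CPM) against the hypertrophy score (mean centred log2 CPM), 1 point per mouse, coloured by genotype, circles for females and triangles for males, with replicate 8 of each genotype ringed. In the right panel the Tln2-null mice run from 87.3 CPM at a score of -0.98 down to 36.0 CPM at 0.75.

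The clock score put the mice into separate clusters of 14 and 2, so no correlation is given for it. Knockout mouse 8 had 27.1 CPM of Arntl, a core clock activator, and Tln2-null mouse 8 had 28.4 CPM, while the other 14 had between 3.66 and 8.43 CPM. For Dbp, a clock output gene of the opposite phase, these mice had 43.6 and 30.4 CPM and the other 14 had between 94.3 and 194 CPM. Kcnd2 was highest of all 16 in these mice, with 47.0 CPM in knockout mouse 8 and 42.6 CPM in Tln2-null mouse 8, and the other 14 had between 15.4 and 36.2 CPM. Kcnip2 had 299 CPM in knockout mouse 8, rank 4 of 16, and 373 CPM in Tln2-null mouse 8, rank 1, with the other 14 between 217 and 322 CPM. Klf15 was lowest of all 16 in the same mice, with 71.2 CPM in knockout mouse 8 and 70.0 CPM in Tln2-null mouse 8, and the other 14 ran from 76.4 to 145 CPM. Kcnh2, the pore of the rapid delayed rectifier, had 95.8 and 89.9 CPM, ranks 14 and 16. Kcnj2, Kcnj3, Kcnd3, Kcnj11, Kcnq1, Kcna5 and Kcnv2 lay inside the range of the other 14 in both mice. No source used here states the time of collection, and its part in the Kcnd2 and Kcnip2 values was not tested.

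For each of the 9, the genes most like it were sought by Pearson's r of log2 CPM over the 16 libraries, after genotype and sex were subtracted, among 10710 genes. Kcnip2 was nearest to Nmi (r = 0.90), Tbc1d10c (0.88) and Steap4 (0.85), and farthest from Naxd (-0.86). Kcnd2 was nearest to Top1mt (0.85), Slc4a4 (0.84) and Prps1l3 (0.84). Kcnd3 was nearest to Ncor1 (0.91), Ppp1r9a (0.87) and Phactr2 (0.87), and farthest from Sh3bgrl3. Kcnj2 was nearest to Nadk2 (0.88), Mia2 (0.86) and Rtf1 (0.85), and farthest from Odc1 (-0.87), the rate-limiting enzyme of polyamine synthesis. Kcnj3 was nearest to Dnajc28 (0.88), Lrpprc (0.87) and Nqo2 (0.87), and farthest from Npdc1 (-0.87). Kcnj11 was nearest to Pink1 (0.84), Gal3st3 (0.84) and Cand2 (0.84), and farthest from Rbm7 (-0.88). Kcnv2 was nearest to R3hdm1 (0.93), Bfar (0.90) and 2900097C17Rik (0.89), and farthest from Selenom. Kcna5 was nearest to Cttnbp2nl (0.94), Pros1 (0.91) and Fam102b (0.90), and Kcnq1 to Car14 (0.84), Nudt3 (0.80) and Coa7 (0.80). None of the 9 appeared among the nearest 3 of another. The top of 10710 values of r is high by selection, so these are descriptions of 16 libraries.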

How the data were processed

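Total RNA of 16 left ventricles was extracted with TRIzol and a column kit and made into directional libraries, per the labels' protocols. The table of counts, as deposited, gives whole numbers for each symbol and mouse. DRAGEN, DESeq2 and the mm10 build are named, without role or version, in the submitters' processing notes. Which annotation was counted is not stated there. A deposited normalized table was not used.

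Replicate numbers follow record order within genotype. The numbers in sample titles served only as a covariate in an alternative. Genes were filtered with filterByExpr (24982 entries, 13775 kept), scaled by TMM and fitted with edgeR 4.0.16 (quasi-likelihood, R 4.3.3) with genotype and sex as terms, and with 1 mean per genotype and sex for the interaction. P-values were adjusted by Benjamini-Hochberg over all genes tested, with calls under 0.05. The fit was tested on simulated data. Ratios and correlations used permutation tests (numpy 2.4.6), with ranks from scipy 1.17.1. The deposited counts lie between 11161766 and 19221673 per library, and counting limits precision at low levels. The p-values of the fits set a difference in means against the variation between mice, and those of ratios and correlations come from permuting mice.

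All 9 genes were named for genotype, sex and their interaction. From each list, up to 4 genes of lowest unadjusted p at a mean of 2 CPM or more could be named. The members and lists were chosen with earlier results of these data known. Alternatives were DESeq2 size factors, DESeq2 1.42.0, limma-voom (limma 3.58.1), other filters, the title number, models without the other term, and libraries left out. A gene of the voltage-gated list is not reported by name here.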

Additional observations from a re-analysis of the deposited data

Results flagged for a closer look

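In groups of 8 mice, 36 sets of values were examined for a mouse far from the others of its genotype by Dixon's criterion, which flags about 1 in 20 groups by chance, and 4 values were found. Kcnip2 was 373 CPM in Tln2-null mouse 8, and the next Tln2-null mouse had 280 CPM. The clock score was -2.002 in knockout mouse 8, with the next knockout mouse at 0.12, and it was -2.26 in Tln2-null mouse 8, with the next Tln2-null mouse at -0.24. The hypertrophy score was -0.80 in knockout mouse 4, with the next knockout mouse at -0.25. In that mouse Kcnj11 (225 CPM) and Kcnq1 (73.2 CPM) were the highest of all 16, a feature chosen after its values were seen.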

How the results depend on the processing

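None of the 9 channel genes was called for genotype, sex or their interaction under any alternative fit or with any library left out. Over all genes, calls for genotype numbered 0 as reported, 1 with no filter on low counts, 17 with DESeq2, 11 with limma-voom and 5 without the 2 libraries with shifted clock genes, and 0 to 7 with each library left out (7 without knockout replicate 8). Calls for sex numbered 12 as reported and 21 with DESeq2. Relations with marker scores past the threshold numbered 7 as reported and 4 without the 2 clock libraries. They numbered 0 on residuals from genotype and sex and 10 on residuals from genotype, sex and title number. The p-values on residuals are somewhat too small, as given above.

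Some signs turned, all of differences that no fit called, and the cause was not tested. For genotype, Kcna5 (-0.0003 as reported, log2) was 0.0029 with the stricter filter, 0.00034 with DESeq2, 0.010 with limma-voom, 0.051 with the title number and 0.19 without the females with Y-linked counts, and Kcnj11 was -0.039 without those females. For sex, Kcnip2 was -0.019 with limma-voom and -0.050 without the clock libraries, Kcnd3 was -0.0051 without the clock libraries and Kcnd2 0.089 without the females with Y-linked counts. For the interaction, Kcnd2 was 0.17 with limma-voom, 0.027 with the title number, 0.064 without those females and 0.45 without the clock libraries. Without those females Kcnj11 was -0.18, Kcnv2 -0.20 and Kcna5 0.57, and without the clock libraries Kcnj11 was -0.013, Kcnip2 0.054 and Kcna5 0.19.

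With each library left out, the genotype values ran from -0.095 to 0.095 for Kcna5, from -0.043 to 0.052 for Kcnq1 and from -0.025 to 0.039 for Kcnj11. The other genotype values stayed positive, from 0.047 to 0.23 for Kcnj2, 0.16 to 0.30 for Kcnj3, 0.17 to 0.41 for Kcnd2, 0.12 to 0.23 for Kcnd3, 0.089 to 0.21 for Kcnip2 and 0.081 to 0.35 for Kcnv2. Under the other alternatives Kcnv2 ran from 0.026 to 0.42 and Kcnj2 from 0.054 to 0.20. The sex values ran from -0.10 to 0.048 for Kcnj2, from -0.12 to 0.0051 for Kcnj3, from -0.061 to 0.0036 for Kcnj11, from -0.17 to 0.078 for Kcnd2, from -0.059 to 0.058 for Kcnd3, from -0.051 to 0.077 for Kcnip2 and from -0.24 to 0.029 for Kcnv2. The interaction values ran from -0.27 to 0.032 for Kcnj3, from -0.034 to 0.11 for Kcnj11, from -0.27 to 0.23 for Kcnd2, from -0.24 to 0.041 for Kcnip2, from -0.15 to 0.42 for Kcnv2 and from -0.25 to 0.15 for Kcna5. The difference in the log2 ratio of Kcnd2 to Kcnd3 ran from -0.0071 to 0.16.

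No paired analysis was possible because replicate numbers follow record order and tie no mouse of one genotype to a mouse of the other.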
